A study of Homo sapiens with 17 samples.

Results

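The deposited count table held 60199 gene symbols, of which 48 are described here as transporters of transmitters and amino acids in 5 solute carrier (SLC) families. They were chosen by symbol: SLC1A1 to SLC1A7 (7 genes), numbered SLC6A genes (18), SLC17A1 to SLC17A9 (9), SLC18A1 to SLC18A3 (3) and every numbered SLC38A gene (11), with pseudogenes left out. RNA was measured in neurons grown for 40 days from H9, an established human embryonic stem cell line, at passage P40. The wild-type (WT) group had 3 libraries, and the knockout (KO) group had 5 libraries of genotype UTX-/-, 3 from line KO1 and 2 from line KO2. UTX (gene symbol KDM6A) is an enzyme that takes methyl groups off histone H3 lysine 27 (H3K27). All groups were differentiated through embryoid bodies and neural rosettes, then kept in a medium with BDNF, GDNF, dibutyryl cyclic AMP and ascorbic acid. The labels state neither how the knockout was made nor whether each line is a single clone. They also do not say whether libraries of a group were differentiated separately, so a p-value here covers the spread between libraries, which may be technical.

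Transmitter transporters work at 2 places. SLC1A and SLC6A proteins use the sodium gradient to take glutamate, GABA, glycine, monoamines or taurine back into neurons and astroglia, which ends the signal. SLC17A6 to SLC17A8 and the SLC18A proteins load glutamate, monoamines or acetylcholine into synaptic vesicles, so the vesicular gene a neuron uses is a common marker of its transmitter. SLC38A proteins carry glutamine and other neutral amino acids, and glutamine from astroglia is a precursor of glutamate and GABA in neurons.

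Library totals were 17.4 to 31.5 M (mega) estimated counts. KDM6A RNA was present at 35.2 to 36 CPM (counts per M library counts, scaled by the TMM method) in WT, against 25.9 to 40.8 CPM in KO, and a gene-level count does not check a deletion within the gene. The label neurons was checked against 15 neuron markers, all of them detected, whose summed level was 4159 to 6356 CPM in WT and 877.2 to 5458 CPM in KO. Of the KO libraries, 3 stood apart by collagen RNA: KO1 replicate 2 and both KO2 libraries had 27540, 9226 and 14460 CPM of COL1A1, against 7.65 to 387.1 CPM in the other 5 libraries. In these 3 libraries the 15 mesenchymal markers summed to 25590 to 65070 CPM, against 132.3 to 1790 CPM elsewhere, and the neuron markers to 877.2 to 3161 CPM. These 3, named collagen-rich here, are KO libraries of both lines. KO2 has no library outside them, so leaving them out compares 2 KO1 libraries with WT.

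Of the 48 transporters, 30 passed the filter on low counts for KO against WT, and 33 passed it when the 3 groups were fitted together. The other 18 had at most 24 estimated counts in any library. Among these 18 were the plasma membrane monoamine transporters SLC6A2 (noradrenaline), SLC6A3 (dopamine) and SLC6A4 (serotonin), with at most 7, 18 and 11 counts. The vesicular monoamine transporter SLC18A2 had at most 13 counts, and SLC17A3, SLC6A14 and SLC6A18 had 0 in all libraries. A count of 3 in the library of 17.4 M would be the floor, so these genes were at or near the limit of detection rather than shown to be absent. Levels of different transporters are not compared, because the files give no transcript lengths.

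For KO against WT, 0 of 30 transporters passed a false discovery rate (FDR) of 0.05 in edgeR's quasi-likelihood test, where percent called over the 18614 genes tested was 0. At an unadjusted edgeR p under 0.05 there were 6 transporters, 5 higher (SLC17A5, SLC38A4, SLC38A6, SLC38A7, SLC38A10) and 1 lower (SLC1A6), where 17.9% of all genes tested had such a p, 11.5% higher and 6.45% lower. DESeq2, which the authors used, called 1243 genes or 5.99% (4.83% higher and 1.16% lower), and 1 of the 37 transporters to which it gave an adjusted p, SLC38A4, which was higher. The median log2 fold change was 0.03 over the 30 transporters and -0.01 over all genes tested, with 16 transporters above 0 and 14 below. Both medians were near 0, and values are therefore given by gene and role.

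**Figure D1:**
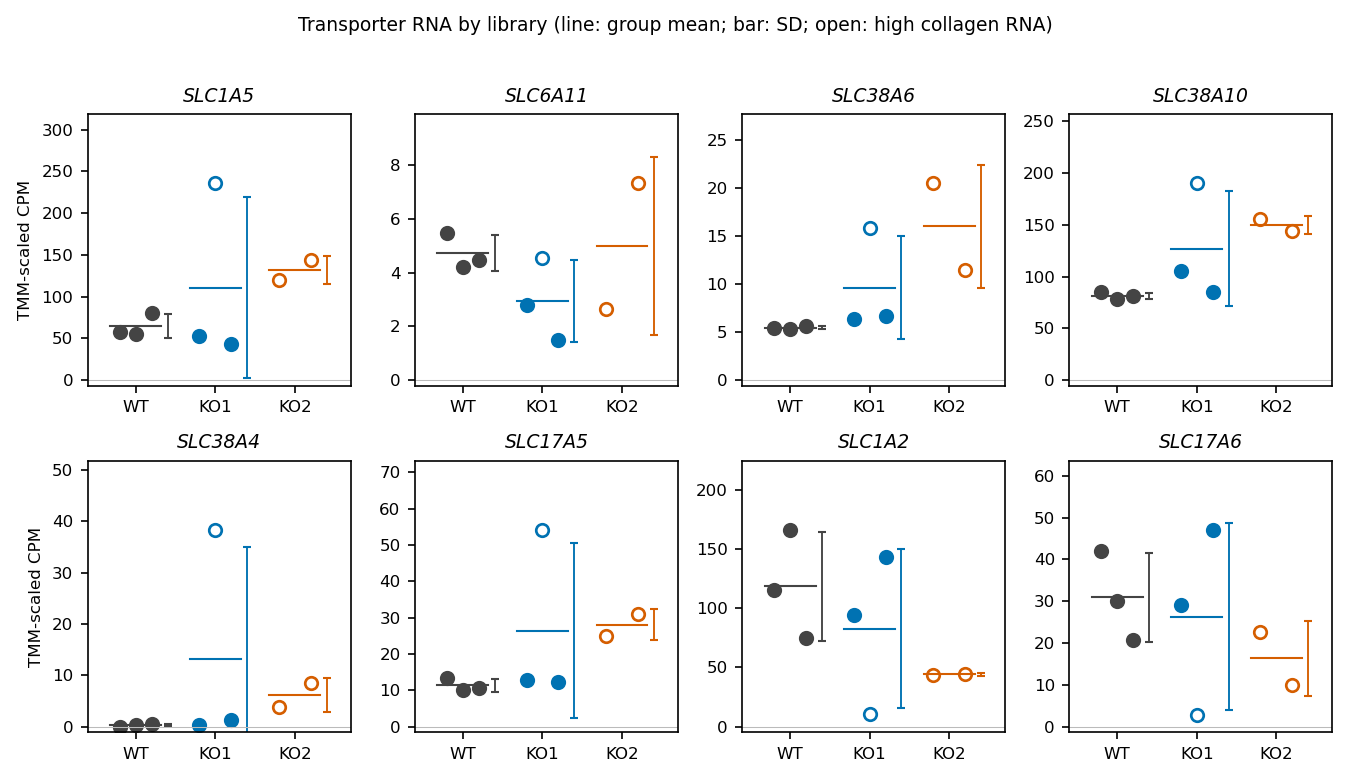
TMM-scaled CPM (vertical axis) of 8 transporters in WT, KO1 and KO2 (horizontal axis), 1 point per library, with lines for group means, bars for the SD and open points for the 3 collagen-rich libraries. SLC38A4, SLC17A5 and SLC1A5 are high in open points, and all KO points of SLC38A6 and SLC38A10 lie above the WT points.

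Of 5 GABA, taurine, betaine and creatine transporters, 3 were tested and these 3 had negative log2 fold changes, with a median of -0.33. SLC6A11 encodes GAT3, the GABA transporter of astroglia. Its level was 5.47, 4.22 and 4.45 CPM in WT, 2.78, 4.55 and 1.5 CPM in KO1, and 2.64 and 7.33 CPM in KO2, so the groups overlapped (edgeR log2 fold change -0.33, unadjusted p = 0.506). Without the 3 collagen-rich libraries SLC6A11 was lower by edgeR at -1.15 (unadjusted p = 0.0193), and the FDR did not pass; 8.29% of genes had an unadjusted p under 0.05 in that comparison. The taurine transporter SLC6A6 and the creatine transporter SLC6A8 had edgeR log2 fold changes of -0.60 and -0.22 with FDR of 0.358 and 0.618. Salmon can share reads between SLC6A8 and its pseudogene SLC6A10P, which had 1 to 6 counts.

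Glycine is taken up by SLC6A5 (GLYT2), which feeds glycinergic terminals, and by SLC6A9 (GLYT1), which sits mostly on astroglia. SLC6A5 was at 3.61, 5.59 and 24.6 CPM in WT, 3.69, 3.20 and 0.32 CPM in KO1, and 6.59 and 2.33 CPM in KO2. The high WT mean came from WT replicate 3, and the edgeR log2 fold change of -1.80 had an FDR of 0.299. SLC6A9 was at 42.8, 31.4 and 21.5 CPM in WT, 32.2, 113.5 and 29.3 CPM in KO1, and 46.6 and 74.8 CPM in KO2. All 3 of its highest values were in the collagen-rich libraries, and without these its log2 fold change of 0.89 became -0.05.

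Glutamate is cleared by the SLC1A transporters, of which SLC1A2 (GLT-1) and SLC1A3 (GLAST) are the main astroglial and radial glial forms and SLC1A1 (EAAC1) a neuronal form. SLC1A2 was at 115.2, 166.4 and 74.5 CPM in WT, 94.2, 10.6 and 143.6 CPM in KO1, and 43.3 and 44.8 CPM in KO2. The 3 collagen-rich libraries had the lowest values, and the other 2 KO libraries lay within the WT range. The edgeR log2 fold change was -0.82 over all libraries (FDR 0.504) and 0.00 without those 3. SLC1A3 was at 127.0, 290.3 and 199.0 CPM in WT, 97.5, 58.4 and 202.9 CPM in KO1, and 380.3 and 86.0 CPM in KO2. Its spread within KO covered the WT values (edgeR log2 fold change -0.32, FDR 0.782). SLC1A1 was at 5.11, 9.29 and 5.74 CPM in WT, 6.17, 5.0 and 6.37 CPM in KO1, and 12.5 and 4.06 CPM in KO2, with group means of 6.71 and 6.83 CPM. SLC1A6 (EAAT4), known from Purkinje cells, averaged 11.7 ± 2.22 CPM over WT (SD, n = 3) and 6.80 ± 2.52 CPM over KO (SD, n = 5), with an unadjusted edgeR p of 0.0415 and an FDR of 0.27. Its log2 fold change was -0.78, and -0.37 without the 3 collagen-rich libraries. DESeq2 called it lower without KO1 replicate 1 (adjusted p = 0.0319) and not without any of the other 7 libraries. SLC1A7 was not tested, with 0 to 14 counts. The neutral amino acid exchangers of the same family, SLC1A4 and SLC1A5, had means of 97.5 and 119.1 CPM in KO against 68.2 and 64.4 CPM in WT, with FDR of 0.329 and 0.384. SLC1A5 reached 236.1, 120.3 and 143.8 CPM in the collagen-rich libraries and 53.1 and 42.5 CPM in the other KO libraries, both below the WT range of 55 to 80.8 CPM. Its log2 fold change thus went from 0.89 to -0.43 without the 3 libraries.

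Of the 3 vesicular glutamate transporters, SLC17A6 and SLC17A7 are the usual markers of glutamatergic neurons. SLC17A6 (VGLUT2) was at 42.0, 29.9 and 20.8 CPM in WT, 29.0, 2.69 and 47.1 CPM in KO1, and 22.6 and 10.0 CPM in KO2. SLC17A7 (VGLUT1) was at 27.7, 10.1 and 8.69 CPM in WT, 23.9, 6.51 and 10.7 CPM in KO1, and 2.78 and 8.13 CPM in KO2. SLC17A6 was lowest in KO1 replicate 2 and KO2 replicate 2, the libraries with the lowest summed neuron markers, and neither gene differed beyond the spread between libraries (FDR 0.728 and 0.63 by edgeR). SLC17A8 (VGLUT3) was at 1.05, 2.13 and 0.43 CPM in WT, 5.15, 1.07 and 1.15 CPM in KO1, and 5.02 and 6.34 CPM in KO2. It was at least at 5.02 CPM in 3 KO libraries, 1 of them not collagen-rich, and its edgeR log2 fold change of 1.62 had an unadjusted p of 0.0713. These 3 libraries, KO1 replicate 1 and both of KO2, also had the highest sums of 10 epithelial and choroid plexus markers, at 624.6, 905.1 and 834.9 CPM, against 33.6 to 202.3 CPM in the other 5. All 10 of these markers had a positive log2 fold change in KO against WT, with a median of 2.87, and of 1.68 without the collagen-rich libraries. DESeq2 called 5 of the 10 higher, and the part of this RNA in the SLC17A8 values was not tested. The sialic acid carrier of lysosomes, SLC17A5, had 10.1 to 13.4 CPM in WT. It had 12.7 and 12.1 CPM in replicates 1 and 3 of KO1, and 54.2, 25.0 and 31 CPM in the collagen-rich libraries. The edgeR log2 fold change of SLC17A5 was 1.24 with an FDR of 0.268, and 0.13 without the collagen-rich libraries. DESeq2 called it without KO1 replicate 1 (adjusted p = 0.0413) and without KO1 replicate 3 (0.0228), and not in the other fits of KO against WT with 1 library left out. The kidney and liver type members SLC17A1 to SLC17A4 had at most 2 counts in any library, and the vesicular nucleotide carrier SLC17A9 had 3 to 13.

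Of the vesicular amine and acetylcholine transporters, SLC18A1 and SLC18A3 were tested in KO against WT. SLC18A1 (VMAT1) was at 0.61, 0.58 and 0.54 CPM in WT, 2.32, 0.00 and 1.79 CPM in KO1, and 0.36 and 0.30 CPM in KO2. Its KO values fell on both sides of WT: above it in KO1 replicates 1 and 3 and below it in the 3 collagen-rich libraries. Without those 3, the edgeR log2 fold change was 1.82 (unadjusted p = 0.00195, FDR 0.423) and the DESeq2 adjusted p was 0.0519, so neither tool called it. In that comparison 25.9% of all genes tested had groups that did not overlap. SLC18A2 (VMAT2) was at 0.16, 0.07 and 0.11 CPM in WT, 0.35, 0.06 and 0.24 CPM in KO1, and 0.58 and 0.50 CPM in KO2. SLC18A3, which loads acetylcholine, was at 1.01, 8.54 and 2.25 CPM in WT, 2.07, 0.79 and 1.62 CPM in KO1, and 3.00 and 1.09 CPM in KO2. The WT mean of SLC18A3 rested on WT replicate 2, and without that replicate its edgeR log2 fold change went from -1.20 to 0.07. SLC18A3 lies within an intron of CHAT, the gene of the acetylcholine-making enzyme, which had 1 to 33 counts.

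The SLC38A family had 9 of 11 members tested, 7 with a positive log2 fold change and a median of 0.40. SLC38A4 (SNAT4), a carrier best known from liver and placenta, was at 0.00, 0.38 and 0.54 CPM in WT, 0.20, 38.4 and 1.20 CPM in KO1, and 3.85 and 8.47 CPM in KO2. The 3 collagen-rich libraries held its 3 highest values, and KO1 replicate 1 was within the WT range. The authors' deposited table gave SLC38A4 a log2 fold change of 5.13 with a standard error of 1.64 and a DESeq2 adjusted p of 0.0356, against an edgeR FDR of 0.248. With 1 library left out, the DESeq2 log2 fold change stayed between 3.53 (without KO1 replicate 2) and 5.80. The call was kept without WT replicate 1 (adjusted p = 0.0478), WT replicate 3 (0.0278), KO1 replicate 1 (0.000493) or KO1 replicate 3 (0.0188), and lost without WT replicate 2 (0.0581), KO1 replicate 2 (0.066), KO2 replicate 1 (0.0714) or KO2 replicate 2 (0.102). It was also lost without all 3 collagen-rich libraries, where its log2 fold change was 1.23 and the adjusted p 0.972. In that last comparison DESeq2 called 262 genes, or 1.43%, and 0 of 31 transporters. The part of the mesenchymal RNA in this result was not tested.

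SLC38A6 (SNAT6), a glutamine carrier described in excitatory neurons, was at 5.43, 5.31 and 5.58 CPM in WT, 6.32, 15.9 and 6.70 CPM in KO1, and 20.5 and 11.5 CPM in KO2. All 5 KO libraries were above all WT libraries, and 3 of them, the collagen-rich ones, by more than the others. The KO mean was 12.2 ± 6.08 CPM (SD, n = 5) against 5.44 ± 0.13 CPM in WT (SD, n = 3), which is 2.24-fold. The exact two-sided permutation p was 0.0357, the smallest that 3 against 5 libraries allow. Groups without overlap always give this p, so it adds nothing to the lack of overlap. Over all genes tested, 12.5% had groups that did not overlap, 6.29% with KO higher and 6.16% with KO lower, against 2 of 30 transporters, both higher. DESeq2 called SLC38A6 in KO2 against WT (log2 fold change 1.57, standard error 0.51, adjusted p = 0.0497) and not in KO against WT (0.0835). With 1 library left out, KO against WT passed for SLC38A6 without KO1 replicate 1 (0.0176) or KO1 replicate 3 (0.0141), and not without any of the other 6. Without the 3 libraries its log2 fold change was 0.26 by edgeR, and the DESeq2 adjusted p was 0.938.

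SLC38A10, a carrier of glutamine and other amino acids in neurons and astrocytes, was the other transporter with no overlap. Its level was 84.6, 78.7 and 80.7 CPM in WT, 105.8, 190.4 and 84.7 CPM in KO1, and 156.1 and 143.6 CPM in KO2. KO1 replicate 3 was barely above the highest WT library (84.70 against 84.58 CPM), and the fold of the means was 1.67 with an edgeR FDR of 0.246. Its edgeR log2 fold change was 0.74, and 0.23 without the collagen-rich libraries. DESeq2 called SLC38A10 without KO1 replicate 3 (adjusted p = 0.00449) and not without any of the other 7 libraries. SLC38A7, a lysosomal glutamine exporter, was at 27.2 to 37.7 CPM in WT, against 37.3 to 44.8 CPM in KO, with SDs of 5.60 and 2.75 CPM and an edgeR FDR of 0.245. DESeq2 called SLC38A7 without WT replicate 2 (adjusted p = 0.0137) and not without any of the other 7 libraries. SLC38A2, which amino acid shortage is known to induce, had 275.6 to 288.6 CPM in WT. In 4 KO libraries it had 264.0, 314.4, 294.7 and 390.7 CPM, but in KO1 replicate 2 it had 707.3 CPM. The 4 remaining tested members, SLC38A1, SLC38A3, SLC38A5 and SLC38A9, had edgeR FDR values of 0.906, 0.991, 0.969 and 0.93, and SLC38A8 and SLC38A11 had at most 5 counts.

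The SLC6 amino acid carriers not described above had 4 of 8 members tested, 2 with positive and 2 with negative log2 fold changes. SLC6A15, a neuronal carrier of branched-chain amino acids and proline, averaged 52.1 ± 16.3 CPM over WT (SD, n = 3) and 30.7 ± 13.6 CPM over KO (SD, n = 5), with an edgeR FDR of 0.318. It was at 13.3, 26.1 and 25.2 CPM in the collagen-rich libraries and at 45.8 and 43.2 CPM in the other KO libraries, within the WT range of 41.9 to 70.9 CPM. Its log2 fold change was -0.76, and -0.22 without those 3. SLC6A20, a proline and glycine carrier, was at 0.16, 0.07 and 0.97 CPM in WT, 3.23, 0.84 and 0.21 CPM in KO1, and 2.96 and 2.28 CPM in KO2. It was above 2 CPM in 3 KO libraries and below 1 CPM in the other 2 and in WT (edgeR log2 fold change 2.30, FDR 0.296). The 3 were again the libraries with the highest epithelial marker sums, whose part was not tested. DESeq2 called SLC6A20 without WT replicate 3 (adjusted p = 0.0163) or KO1 replicate 3 (0.0221), and not without any of the other 6 libraries. SLC6A16 and SLC6A17 had FDR values of 0.832 and 0.733, and SLC6A7, SLC6A14, SLC6A18 and SLC6A19 had at most 8 counts.

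**Figure D2:**
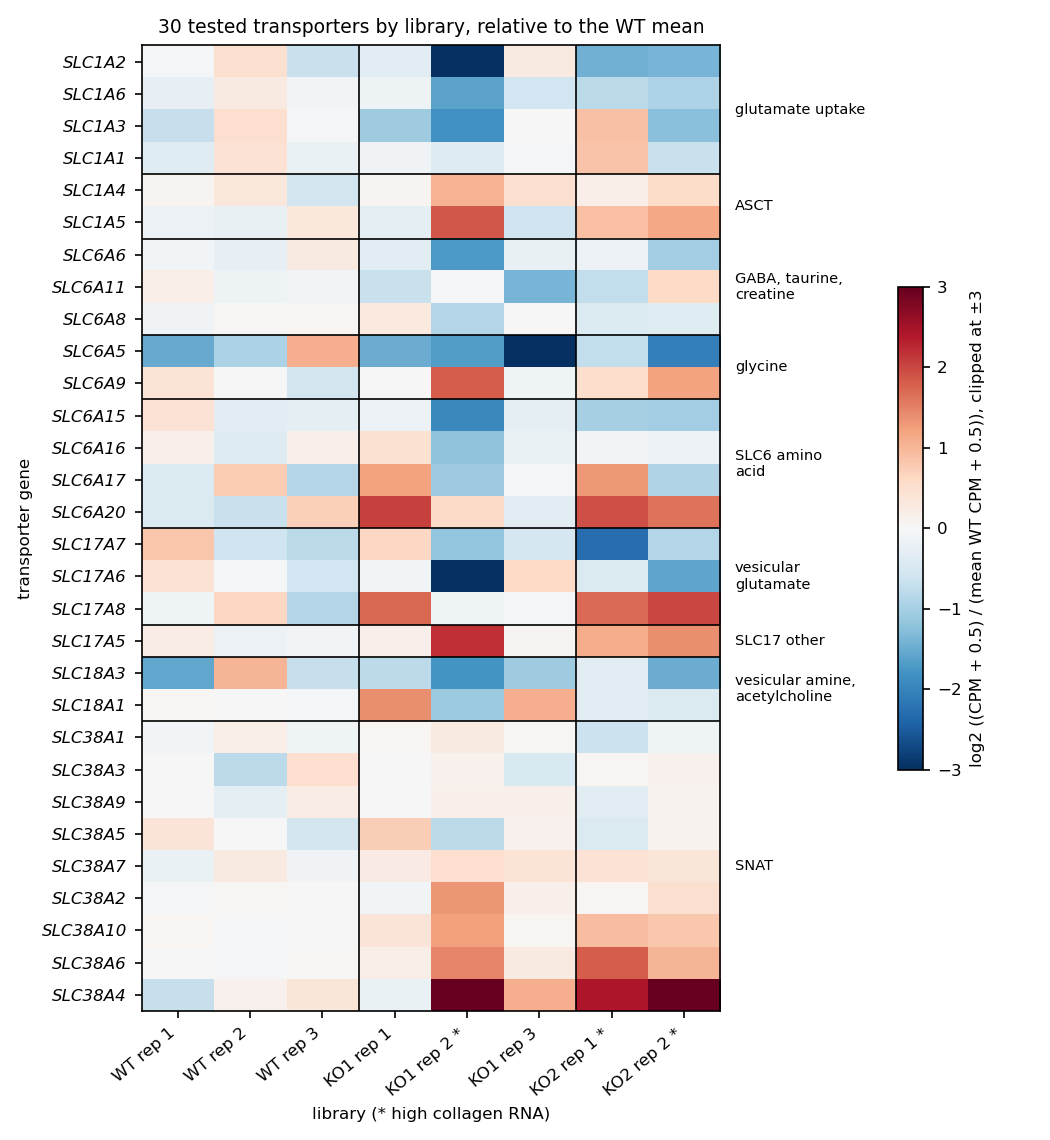
Log2 ratio of each library's CPM to the WT mean, after adding 0.5 CPM to both and clipped at 3 (colour), for the 30 tested transporters (rows, grouped by role) in 8 libraries (columns, with asterisks on the 3 collagen-rich ones). KO1 replicate 2 has 8 transporters at least 2-fold above the WT mean and 12 at least 2-fold below it, and SLC38A4 is at least 2-fold above it in 4 of 5 KO libraries.

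Counted by library, departures from the WT mean were more numerous in the collagen-rich libraries, although KO2 replicate 1 was close to KO1 replicate 1. KO1 replicate 2 had 20 of 30 transporters at least 2-fold from the WT mean on the log2(CPM + 0.5) scale, KO2 replicate 2 had 14 and KO2 replicate 1 had 8. KO1 replicates 1 and 3 had 6 and 5, and the WT libraries, which enter that mean, had 1 or 2. SLC6A5 was at least 2-fold below it in 4 of 5 KO libraries and in WT replicate 1. The same counts were not made over all genes, so they are not shown to be particular to transporters.

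The lines were also compared with each other. By edgeR with 3 groups, 0 of 33 transporters were called in KO1 against WT, KO2 against WT or KO2 against KO1, and percent called was 0 in each; an unadjusted p under 0.05 was found for 8.06%, 18.3% and 2.24% of all genes. The transporters at that unadjusted p were 3, 4 and 0. DESeq2 called 0.846% of genes and 0 of 36 transporters in KO1 against WT, 4.24% and 1 of 35 (SLC38A6) in KO2 against WT, and 9 genes, 0.0401%, and 0 of 38 transporters in KO2 against KO1. Comparisons with KO2 depended on KO1 replicate 2, which shares the estimate of spread: without it, edgeR called 3228 genes, or 16.7%, in KO2 against WT. Of the transporters 8 of 33 were called then, a group chosen after the values were seen. SLC17A5 (log2 fold change 1.31), SLC18A2 (2.23), SLC1A5 (1.05), SLC38A4 (4.37), SLC38A6 (1.56) and SLC38A10 (0.89) were higher, and SLC1A2 (-1.43) and SLC6A15 (-1.01) lower, with edgeR FDR from 0.00766 to 0.04. SLC18A2 was near the limit of detection, with 4, 2 and 2 counts in WT and 13 and 10 in KO2. In KO2 against KO1 without KO1 replicate 2, 958 genes or 4.95% were called and 4 transporters: SLC17A5, SLC1A5 and SLC38A10 higher in KO2, and SLC18A1 lower, at a log2 fold change of -2.61. These comparisons set 2 collagen-rich KO2 libraries against libraries without such RNA, so line and collagen-rich state cannot be told apart.

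**Figure D3:**
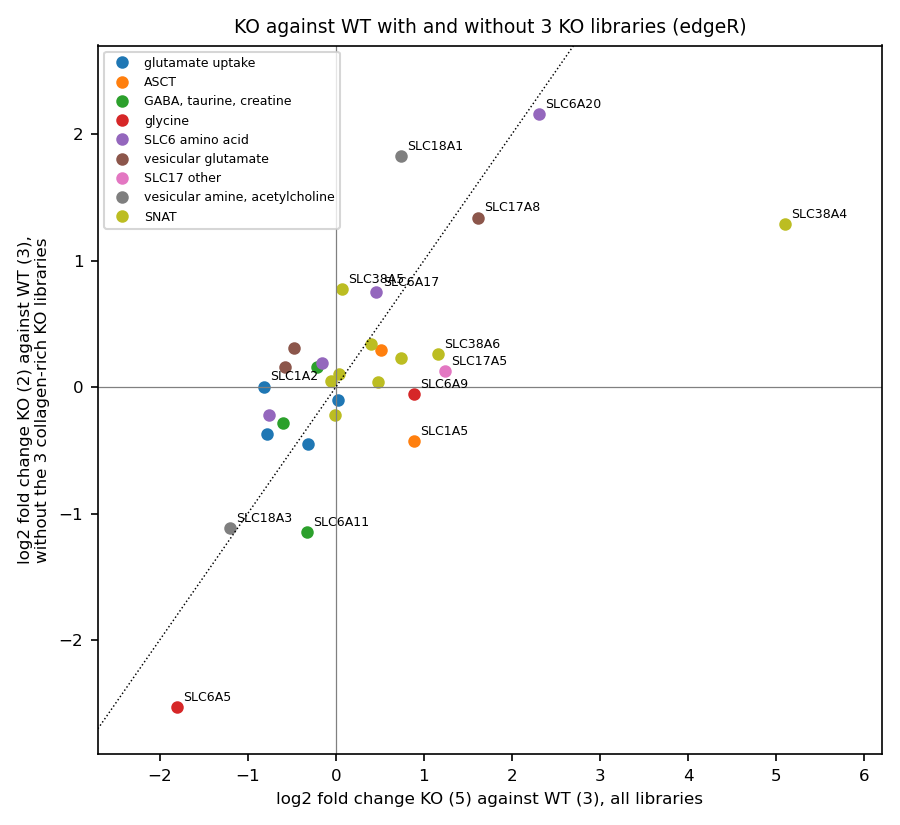
edgeR log2 fold changes of KO against WT for 30 transporters with all 8 libraries (horizontal axis) and without the 3 collagen-rich KO libraries (vertical axis), coloured by role, with a dotted line of equality. SLC18A3 lies close to the line, and SLC38A4 moves from 5.10 to 1.29.

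Genes that make or handle the same substrates were read from lists. Of 22 genes for synthesis, breakdown and vesicular loading of transmitters, 21 were tested, 0 were called by edgeR, and DESeq2 called SLC32A1, the vesicular GABA transporter. SLC32A1 was at 1.54, 18.3 and 15.3 CPM in WT, 2.53, 1.24 and 4.67 CPM in KO1, and 2.78 and 2.03 CPM in KO2. WT replicate 1 lay within the KO range, and the log2 fold change of -2.14 (DESeq2 adjusted p = 0.042) was -1.71 without the 3 collagen-rich libraries, with an adjusted p of 0.792. In KO against WT the GABA-synthesising enzymes GAD1 and GAD2 had DESeq2 adjusted p values of 0.553 and 0.208. WT replicate 1 was again low for them, at 1.22 and 2.03 CPM. In KO2 against WT, DESeq2 called GAD2 lower and no other gene of this list, where 4.24% of all genes were called.

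Of 16 other genes of amino acid transport, mostly of the SLC7 family, 15 were tested, 12 with a positive log2 fold change, and the median was 0.70. edgeR called 0 of them, and DESeq2 called 3 higher, SLC7A6, SLC7A8 and SLC7A10, where 4.83% of all genes were called higher. Without the collagen-rich libraries 7 of 13 tested were positive with a median of 0.0013, and SLC7A8 was the 1 gene called. SLC7A6 then had an adjusted p of 0.245, and DESeq2 gave SLC7A10 none. SLC7A8 (LAT2, a neutral amino acid exchanger) was at 13.7, 9.15 and 6.81 CPM in WT, 33.5, 29.1 and 20.1 CPM in KO1, and 69.0 and 40.4 CPM in KO2. Every KO library was above every WT library, with a DESeq2 adjusted p of 0.000681 over all libraries and 0.0114 without the 3 collagen-rich ones. All 16 genes of the amino acid response, which ATF4 drives when amino acids run short, had a positive log2 fold change, with a median of 0.74, and DESeq2 called MTHFD2, TRIB3 and VLDLR while edgeR called 0. Without the collagen-rich libraries 8 of the 16 were positive and the median was -0.01, so this list moved with those libraries. The astroglia list, whose cells express SLC1A2, SLC1A3 and SLC6A9, summed to 1961 to 2392 CPM in WT and 1341 to 2504 CPM in KO. NES and PTPRZ1 made up most of the WT sum, with means of 772.3 and 874.9 CPM. GFAP, AQP4, S100B and ALDH1L1 averaged 1.4 to 2.91 CPM in WT. By edgeR 6 of the 12 markers were positive and 6 negative. In KO against WT, DESeq2 called GJA1 alone, higher in KO (means of 96.5 and 486.4 CPM, adjusted p = 0.00174), so the sum does not follow each marker. In KO2 against WT it called GJA1 and TNC higher. In bulk RNA, fewer cells of a type and less RNA per cell cannot be told apart.

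H3K27me3, the mark that UTX removes and that Polycomb complexes place, was read from 1 deposited peak list per genotype, with no replicate check. ChIP samples of both KO lines were labelled with the same KO list, and the labels do not say whether its reads came from 1 line or both. The WT list came from 22.4 M tags and had 10340 peaks, and the KO list came from 37.7 M tags and had 10950. Of 48 transporters, 17 had a peak within 2 kb of the gene start in WT (35.4%) and 17 in KO, and 16 were the same genes. Over all genes with a position the shares were 9.22% in WT and 9.58% in KO. Among the 30 transporters with tested RNA, 11 had a peak in each list, where 14.5% and 15% of all tested genes did. For 9 transporters without a strand in the promoter table, either end of the gene counted as the start.

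The marked genes were by role mostly those of transmitters. They were the vesicular transporters SLC17A6, SLC17A7, SLC18A2 and SLC18A3, the monoamine transporters SLC6A2, SLC6A3 and SLC6A4, the GABA and glycine transporters SLC6A11 and SLC6A5, and the glutamate transporters SLC1A1, SLC1A2 and SLC1A6. SLC38A3, SLC6A7, SLC6A17 and SLC6A20 completed the 16. Of the 11 SLC38A genes, SLC38A3 alone had a peak within 2 kb of the start in both lists, while SLC38A4 had peaks farther upstream, described below. The 11 tested transporters with a peak within 2 kb in both lists had a median log2 fold change of -0.47, 8 of them negative. The 19 without one, SLC38A4 among them, had a median of 0.48, 6 of them negative. Without the 3 collagen-rich libraries those medians were -0.10 and 0.16. The same split was not made over all genes tested, so these medians are not shown to be particular to transporters.

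SLC1A2 had 1 peak of 290 bp in WT and 4 peaks that summed to 3194 bp in KO. Wider coverage in KO was common among the marked transporters. Of 12 with a stranded start and a peak in both lists, 10 had more bases under peaks within 2 kb in KO, 1 had the same and 1, SLC6A4, had fewer (3724 bp in WT and 3640 bp in KO). Over all genes 54.7% of 1972 were longer in KO. SLC6A11 went from 299 to 1962 bp, SLC17A6 from 385 to 1805 bp and SLC6A20 from 2185 to 3839 bp. SLC18A3 was covered over the whole window of 4001 bp in both. The KO list came from more tags (37.7 M against 22.4 M), and its median peak length was 614 bp against 619 bp in the WT list. The part of depth in these widths was not tested.

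**Figure D4:**
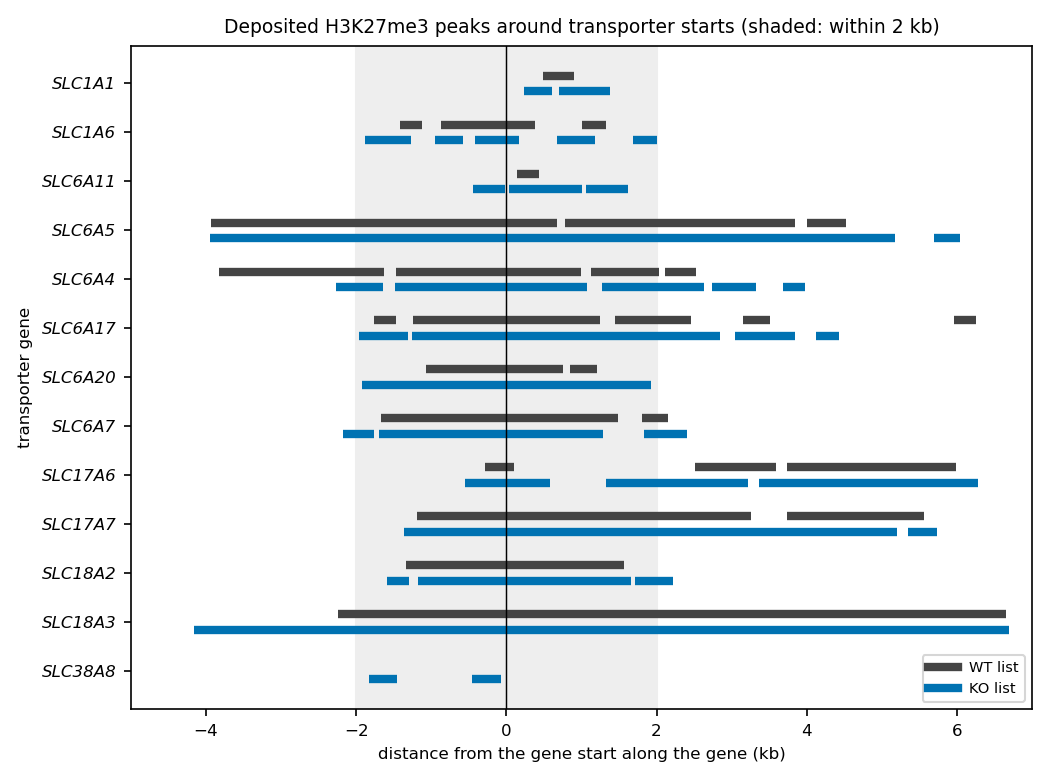
Deposited H3K27me3 peaks (bars; WT list dark, KO list blue) by distance from the gene start along the gene, in kb, for 13 transporters with a stranded start and a peak within 2 kb in at least 1 list. SLC38A8 has bars in the KO list alone, and SLC6A11 has 1 short WT bar and 3 KO bars.

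A peak at the start was in 1 list alone for 2 transporters, both too weakly expressed to test. SLC38A8, a glutamine transporter of the retina, had peaks of 384 and 376 bp in the KO list and 0 to 3 RNA counts. SLC17A9 had a WT peak at chr20:62970912-62971211, which lay beyond the end of the gene with the higher coordinate, and the table does not give which end is the start. SLC38A4 had no peak within 2 kb of its listed start in either list. A WT peak of 3093 bp, with a fold over control of 8.16 (the authors' value), lay from -6898 to -3806 bp relative to that start. The gene, annotated at chr12:46764761-46832431, is on the minus strand, and this peak covered its upstream (5′) end. The KO list had peaks of 3343 and 363 bp there, and the longer one covered that end too. SLC38A4 is thus counted as unmarked by its listed start alone.

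The RefSeq promoter table (GRCh38.p14) matched 39 of the 48 transporters. Marked transporters had starts richer in CpG pairs, counted over the 250 bases before the start. The 12 with a peak in both lists had a median of 22.5 CpG pairs (7 to 33) and the 26 with none a median of 9.5 (0 to 28). All 27305 promoters of the table had a median of 11 and those of genes with tested RNA 20.0. The 26 include SLC38A4 and the transporters with untested RNA, which had 0 (SLC17A4) to 17 (SLC6A19) CpG pairs. This contrast was not split by RNA level. The 250 bases before the start, 5′ to 3′ along the gene with CpG pairs in capitals, are shown for 2 transporters marked in both lists, for the one marked in KO alone and for the 2 SLC38A genes discussed above. They are SLC17A7 at chr19:49441528-49441777 (minus strand, 17 CpG pairs), SLC6A11 at chr3:10815978-10816227 (plus, 30), SLC38A8 at chr16:84042796-84043045 (minus, 7), SLC38A4 at chr12:46825998-46826247 (minus, 11) and SLC38A6 at chr14:60980995-60981244 (plus, 27).
SLC17A7: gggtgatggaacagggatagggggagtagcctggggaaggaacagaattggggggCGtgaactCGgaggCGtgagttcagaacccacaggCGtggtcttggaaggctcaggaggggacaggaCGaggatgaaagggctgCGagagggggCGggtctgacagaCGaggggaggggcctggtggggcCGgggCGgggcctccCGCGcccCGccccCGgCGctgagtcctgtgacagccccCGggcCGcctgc
SLC6A11: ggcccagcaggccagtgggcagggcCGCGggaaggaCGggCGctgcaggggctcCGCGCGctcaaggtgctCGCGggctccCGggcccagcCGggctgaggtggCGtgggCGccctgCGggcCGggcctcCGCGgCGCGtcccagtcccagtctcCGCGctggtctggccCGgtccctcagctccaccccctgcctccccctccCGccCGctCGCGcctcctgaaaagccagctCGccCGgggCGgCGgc
SLC38A8: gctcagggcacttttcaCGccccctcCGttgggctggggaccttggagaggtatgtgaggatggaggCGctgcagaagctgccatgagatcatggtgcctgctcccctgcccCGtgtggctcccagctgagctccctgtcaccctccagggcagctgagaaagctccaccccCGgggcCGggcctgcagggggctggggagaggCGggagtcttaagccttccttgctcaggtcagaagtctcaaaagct
SLC38A4: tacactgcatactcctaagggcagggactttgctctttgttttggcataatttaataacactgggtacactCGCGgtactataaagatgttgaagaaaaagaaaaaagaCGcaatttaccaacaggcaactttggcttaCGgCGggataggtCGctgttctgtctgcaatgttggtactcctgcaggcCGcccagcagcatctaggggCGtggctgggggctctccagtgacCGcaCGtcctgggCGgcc
SLC38A6: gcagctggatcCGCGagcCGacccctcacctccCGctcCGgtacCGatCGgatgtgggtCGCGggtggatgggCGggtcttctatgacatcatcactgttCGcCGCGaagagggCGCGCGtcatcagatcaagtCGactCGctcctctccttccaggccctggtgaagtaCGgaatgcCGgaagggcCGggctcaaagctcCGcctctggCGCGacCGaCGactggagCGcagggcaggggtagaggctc
CpG content alone does not separate marked from unmarked genes here: SLC38A6 has 27 CpG pairs and no H3K27me3 peak, and SLC38A8 has 7 and a peak in KO. On either strand of the 250 bases, GGGCGG (a GC box) was in 19 of 39 transporters and 42.3% of all 27305 promoters, and TATAAA in 3 and 11.1%. TGATGNAA, a core of sites that ATF4 binds, was in 3 transporters (SLC17A3, SLC17A7 and SLC1A3) and 3.19% of promoters. A match is a string in this window and no measure of binding.

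H3K36me3, a mark of transcribed gene bodies, was read as any peak within the gene span. It was present at 11 of 48 transporters in WT and 4 in KO, where the shares over all genes with a position were 19.9% and 10.5%. All 11 were among the 30 with tested RNA, where 43.6% of tested genes had such a peak in WT and 23.7% in KO. SLC1A3, SLC38A1, SLC38A2 and SLC6A16 had one in both lists, and SLC1A4, SLC1A5, SLC38A7, SLC38A10, SLC6A6, SLC6A8 and SLC6A9 in WT alone. No transporter had a peak in KO alone, and the KO list held 8937 peaks against 30144 in WT although it came from 44.4 M tags against 22.5 M. In 0 transporters did these peaks cover 10% of the gene.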

How the data were processed

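The files used were a gene table of 8 RNA libraries, the authors' table of KO against WT and 4 peak lists. Per the submitters' processing notes, RNA was quantified with Salmon 1.1.0 and tested with DESeq2 1.26.0 on GRCh38. The deposited RNA values are estimated counts per gene symbol, not normalized, and were rounded here. The labels state neither how transcripts were summed to genes nor the annotation. Their deposited comparison table, by the authors, holds a signal that is the mean normalised count, log2 fold changes with standard errors, a score (the Wald statistic) and p-values, with the adjusted p set to 1 where none was computed. ChIP reads were aligned with Bowtie2 2.4.1, per the submitters' processing notes. Per the file headers, MACS2 2.2.7.1 called narrow peaks with 0.01 as its q limit. Each deposited list gives a peak's pileup as signal, its fold ratio over control and −log10 q-values. The control is named input in the titles and rabbit IgG in the antibody label.

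The main test was edgeR 4.0.16 in R 4.3.3 (filterByExpr, TMM, quasi-likelihood test, Benjamini-Hochberg adjustment over all genes, FDR 0.05). KO against WT pooled KO1 and KO2, and 1 fit with 3 groups gave the lines. DESeq2 1.42.0 was the alternative, and its log2 fold changes and those deposited by the authors differed by less than 0.001 for 99.99% of 35365 genes. CPM are TMM-scaled. Exact permutation tests were two-sided. Gene starts came from the RefSeq promoter table (GRCh38.p14) or, without an entry, from either end of the gene, and 2 kb around them counted as the start. Both tests were tested on simulated data with the same spread for every gene and no library set apart. That differs from these data, so the simulation does not cover the collagen-rich libraries. 1 gene that the symbol rule takes is not reported here and enters no count of transporters. The members and lists were chosen with earlier results of these data known. Values by library were given for transmitter carriers, for genes past adjusted p under 0.05, for genes with no overlap and a fold of at least 2, and for genes with an H3K27me3 peak in 1 list. Other genes named were chosen after their values were seen. Other settings were RLE scaling, other filters, DESeq2, a replicate block, each library left out, other windows and stricter peaks. Leaving out the 3 collagen-rich libraries, and DESeq2 with each library left out, were chosen after seeing the data. Library totals limit the precision of weakly expressed genes. Replicates of a group differed by 26.3 to 454 times the sampling noise (chi-square per degree of freedom), so no 2 agreed within it.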

Additional observations from a re-analysis of the deposited data

Results flagged for a closer look

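Each of the 30 tested transporters was checked for a library set apart among the 5 KO libraries, by whether its gap to the nearest library exceeded 0.71 of the range, and chance gives about 1 in 20 groups. There were 4 such values. SLC38A4 was at 38.4 CPM in KO1 replicate 2, where the next KO library had 8.47 CPM. SLC38A2 was at 707.3 CPM in the same library, against 390.7 CPM in the next. SLC1A1 was at 12.5 CPM in KO2 replicate 1, against 6.37 CPM in the next. SLC38A3 was low in KO1 replicate 3, at 3.23 CPM, against 4.65 CPM in the next lowest. The first 2 were in the library with 27540 CPM of COL1A1, whose part in them was not tested.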

How the results depend on the processing

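For KO against WT by edgeR, 0 genes and 0 transporters were called under every scaling, filter, replicate block, 3-group fit and left-out library tried, and DESeq2 called 1243 genes and 1 transporter. DESeq2 called 173 genes in KO1 against WT, 839 and 1 transporter in KO2 against WT, and 9 genes in KO2 against KO1. With no filter on low counts, edgeR called 1 gene in KO1 against WT and 1 in KO2 against WT. With each library left out, edgeR calls ranged from 0 to 3228 genes and 0 to 8 transporters in KO2 against WT, and from 0 to 958 and 0 to 4 in KO2 against KO1, the upper values without KO1 replicate 2. DESeq2 calls in KO against WT ranged from 452 genes (without WT replicate 2) to 2870 (without KO1 replicate 3) and from 0 to 5 transporters, and were 262 and 0 without the 3 collagen-rich libraries. H3K36me3 peaks were at 2 transporters in KO when only peaks with −log10 q of at least 5 counted, and at 0 in WT and 0 in KO when peaks had to cover 10% of the gene.

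Labels give WT and KO1 the same replicate numbers, and their same-numbered libraries had correlations of 0.069, -0.32 and -0.22. Those of WT and KO2 had 0.05 and -0.11, and those of KO1 and KO2 had 0.27 and 0.16. Differently numbered libraries ranged from -0.27 to 0.34. These correlations use deviations from means of 2 or 3 libraries, the collagen-rich ones among them. They therefore cannot decide whether the numbers pair libraries. With the replicate block edgeR called 0 genes, and SLC1A1 (-0.088), SLC38A3 (0.066) and SLC6A17 (-0.026) changed sign. Scaling by total counts moved the median log2 ratio of all genes from -0.0048 to -0.115 and gave SLC1A1 and SLC38A9 the other sign. It put the WT mean of SLC38A6 at 5.73 CPM.

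The 30 tested transporters had 448 fold changes under the alternatives to the edgeR fit, DESeq2 among them. Of these, 416 kept their direction and side of the threshold, 1 passed the threshold (SLC38A4 by DESeq2) and 31 changed sign, in 15 transporters that edgeR and DESeq2 did not call in KO against WT with all libraries. Without the collagen-rich libraries, the log2 fold changes with the other sign were, by edgeR, SLC17A6 0.31, SLC17A7 0.16, SLC1A1 -0.10, SLC1A2 0.0043, SLC1A5 -0.43, SLC38A1 0.049, SLC6A16 0.19, SLC6A8 0.16 and SLC6A9 -0.054. By DESeq2 they were SLC17A6 0.30, SLC17A7 0.16, SLC1A1 -0.11, SLC1A5 -0.43, SLC38A1 0.043, SLC38A3 -0.22, SLC6A16 0.19, SLC6A8 0.16 and SLC6A9 -0.059. SLC38A3 was at 0.0047 in the 3-group fit, where SLC38A5 was at -0.022, at 0.0091 by DESeq2 and at 0.0087 with RLE scaling.

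With each library left out, edgeR log2 fold changes that crossed 0 ranged from -1.14 to 0.15 for SLC17A7, from -0.42 to 0.59 for SLC38A5, from -0.39 to 0.038 for SLC6A16, from -0.14 to 0.083 for SLC38A1, from -0.30 to 0.33 for SLC1A1, from -0.88 to 0.014 for SLC1A3, from -1.66 to 0.073 for SLC18A3, from -0.32 to 0.35 for SLC38A3 and from -0.096 to 0.15 for SLC38A9. DESeq2 gave -1.12 to 0.15 for SLC17A7, -0.42 to 0.61 for SLC38A5, -0.37 to 0.041 for SLC6A16, -0.14 to 0.084 for SLC38A1, -0.30 to 0.34 for SLC1A1, -0.88 to 0.023 for SLC1A3, -1.66 to 0.087 for SLC18A3, -0.30 to 0.37 for SLC38A3 and -0.076 to 0.17 for SLC38A9. The cause of these changes was not tested. Transporters with few counts, and peak lists without replicates, limit what can be read.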
